A study of Mus musculus with 12 samples.

Results

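The mitosis and G2/M genes are a set of 34 genes whose products drive a cell from the end of DNA replication through chromosome segregation to cytokinesis. They were described in islets of 4 groups of 129Sv mice measured on 12 arrays, with 3 arrays in each group: P9.5 pregnant Prlr-/- mice, P9.5 pregnant Prlr+/+ mice, non-pregnant (NP) Prlr-/- mice and NP Prlr+/+ mice. A gene was taken from the probe sets that carry its symbol alone in the annotation of the array, and where several did, the one brightest on average across the 12 arrays was used. In this way 33 of the 34 genes were measured, out of 19938 genes that the array measures alone. The missing one was Ccnb1, which encodes cyclin B1 and for which no level is given. Top2a had 2 probe sets of its own, and the dimmer one, with a mean of 3.23 on the log2 scale, was called in no comparison.

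Prlr-/- mice lack the prolactin receptor in the whole body, not only in islets. The pregnant Prlr-/- mice also carried a progesterone pellet, which the pregnant Prlr+/+ mice did not, so the pellet cannot be told apart from genotype at P9.5, from pregnancy in the comparison of Prlr-/- P9.5 with Prlr-/- NP islets, or from the interaction of both. The labels call the arrays biological replicates and do not say whether an array holds 1 mouse or a pool. All values are log2 expression values, and 1 unit is a doubling. A probe set was called higher or lower at a fold change of 1.5 or more together with an adjusted p under 0.05 over all 35511 probe sets in limma.

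In a dividing cell, transcription of these genes is low in G1 and peaks in G2 and mitosis. Cyclin-dependent kinase 1 bound to A- and B-type cyclins starts mitosis, Aurora and Polo-like kinases build the spindle, kinetochores tie chromosomes to microtubules, and the spindle checkpoint delays the anaphase-promoting complex until every chromosome is attached. Because few cells of an adult islet divide, their summed RNA is a common measure of how many cells are cycling. In rodents the prolactin receptor on beta cells is known to take part in the growth of beta cell mass during pregnancy. In whole islets, a change in the number of dividing cells and a change in RNA per cell cannot be told apart.

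Many promoters of such genes carry a CCAAT box, which binds NF-Y, and the cell cycle genes homology region TTTGAA, which binds the MuvB complexes that repress these genes in resting cells and activate them in G2. Both were searched on both strands in the 250 bases before the RefSeq start (build GRCm38.p6), where 30 of the 34 genes matched an entry. The letters TTTGAA were found in 11 of the 30 genes (36.7%), against 18.3% of all 27025 genes with an entry. The letters CCAAT were found in 21 of the 30 (70.0%), against 37.5% of all genes. Both stood in 9 of the 30 (30.0%), against 6.5% of all genes. A match is a description of the letters and not a binding site. The following runs belong to some of the genes that the results turn on, with matches to either motif, on either strand, in capitals. They are chr11:99024190-99024439, minus strand, chr7:135716380-135716629, minus strand, chr19:37376132-37376381, plus strand, chr7:80294226-80294475, plus strand, chr6:66534971-66535220, plus strand and chr10:69352913-69353162, minus strand.
Top2a: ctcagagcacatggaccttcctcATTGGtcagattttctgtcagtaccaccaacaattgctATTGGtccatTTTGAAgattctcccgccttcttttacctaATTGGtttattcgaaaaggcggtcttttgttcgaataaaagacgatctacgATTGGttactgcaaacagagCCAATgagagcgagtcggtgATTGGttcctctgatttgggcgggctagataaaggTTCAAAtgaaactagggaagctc
Mki67: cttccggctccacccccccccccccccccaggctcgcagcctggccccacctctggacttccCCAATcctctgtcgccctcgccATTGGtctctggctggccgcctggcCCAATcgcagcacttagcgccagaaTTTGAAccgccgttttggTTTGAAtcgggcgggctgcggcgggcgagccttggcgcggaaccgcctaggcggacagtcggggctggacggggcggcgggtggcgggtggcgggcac
Kif11: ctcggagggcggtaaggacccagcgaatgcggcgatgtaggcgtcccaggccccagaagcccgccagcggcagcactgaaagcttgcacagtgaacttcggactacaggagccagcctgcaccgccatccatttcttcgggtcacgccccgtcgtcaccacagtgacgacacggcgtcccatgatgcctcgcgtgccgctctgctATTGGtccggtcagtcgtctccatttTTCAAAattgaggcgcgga
Prc1: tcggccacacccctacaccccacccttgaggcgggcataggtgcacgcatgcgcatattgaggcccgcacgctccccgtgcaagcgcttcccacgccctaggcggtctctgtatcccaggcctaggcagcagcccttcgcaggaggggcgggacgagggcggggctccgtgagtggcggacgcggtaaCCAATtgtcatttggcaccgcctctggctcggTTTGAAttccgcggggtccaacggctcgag
Mad2l1: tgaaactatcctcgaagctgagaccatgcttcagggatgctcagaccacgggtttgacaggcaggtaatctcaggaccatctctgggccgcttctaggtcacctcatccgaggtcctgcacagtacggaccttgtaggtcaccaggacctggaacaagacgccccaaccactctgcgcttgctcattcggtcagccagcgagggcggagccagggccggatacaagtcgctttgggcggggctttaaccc
Cdk1: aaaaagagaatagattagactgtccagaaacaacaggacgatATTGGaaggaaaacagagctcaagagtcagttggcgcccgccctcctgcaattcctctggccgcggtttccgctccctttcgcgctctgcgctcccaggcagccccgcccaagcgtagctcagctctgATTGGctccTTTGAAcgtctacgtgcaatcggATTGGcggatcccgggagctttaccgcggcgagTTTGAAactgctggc
The Top2a run holds 2 matches to TTTGAA, beginning at -179 and -23 from the start, and 6 to CCAAT. In Mki67 there were 2 and 3 matches, with TTTGAA at -116 and -98. Kif11 had 1 of each, with TTTGAA at -19, and so had Prc1, with TTTGAA at -30 before the second of its 2 starts. Cdk1 held 2 matches to TTTGAA and 3 to CCAAT, while Mad2l1 held 0 of either. Among the called genes not printed that had an entry, Ect2 held both motifs, Hmmr held CCAAT only, and Nuf2 and Anln held neither. Both motifs stood in 5 of the 9 called genes with an entry (55.6%) and in 4 of the 20 measured genes not called (20.0%). Whether the motifs go with the calls was not tested. Mad2l1 moved with pregnancy in both genotypes and Cdk1 was called in neither (values in the account of each gene).

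Arrays of one stage correlated at 0.972 to 0.988 across all probe sets, and arrays of different stages at 0.931 to 0.969. Xist, the non-coding RNA of the silenced X chromosome, was at 3.8 in the array Prlr+/+ P9.5 replicate 2 and at 10 to 10.7 in the other 11, and Y-linked genes lay between 3.1 and 4.6 in all 12. Islets of female mice should hold no RNA of Y-linked genes, so 4.6 was taken as the upper end of the background. In Prlr+/+ P9.5 replicate 2, 1 of the 3 arrays of its group, Xist too lay within this background. The reason was not tested, and the array was kept under its label. Of the 33 mitosis genes, 8 stayed at or below 4.6 in every NP array (Anln, Bub1, Cenpe, Hmmr, Kif11, Kif15, Kif4 and Ttk), and fold changes of these may be compressed. The 33 genes ranged from 3.7 to 7.4 over all arrays. Precision is limited by there being 3 arrays in a group.

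In islets of Prlr-/- mice, 11 of the 33 mitosis genes rose at P9.5 against NP (33.3%) and 0 fell in limma (0 also at an unadjusted p under 0.05), while 7.44% of all probe sets were called higher and 7.09% lower. They were Top2a, Mad2l1, Nuf2, Prc1, Ect2, Kif11, Hmmr, Mki67, Anln, Kif20a and Tpx2, with fold changes between 1.625 and 2.701. The median log2 fold change of the 33 genes was 0.367, beside -0.067 over all probe sets. It was above 0 for 29 genes, 0 for 2 and below 0 for 2. At an unadjusted p under 0.05, 19 of the 33 were higher (57.6%), against 20.2% of all probe sets, and 0 were lower, against 24.8%. For 15 genes (45.5%) all 3 Prlr-/- P9.5 arrays lay above all 3 Prlr-/- NP arrays, against 19.4% of all probe sets.

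**Figure D1:**
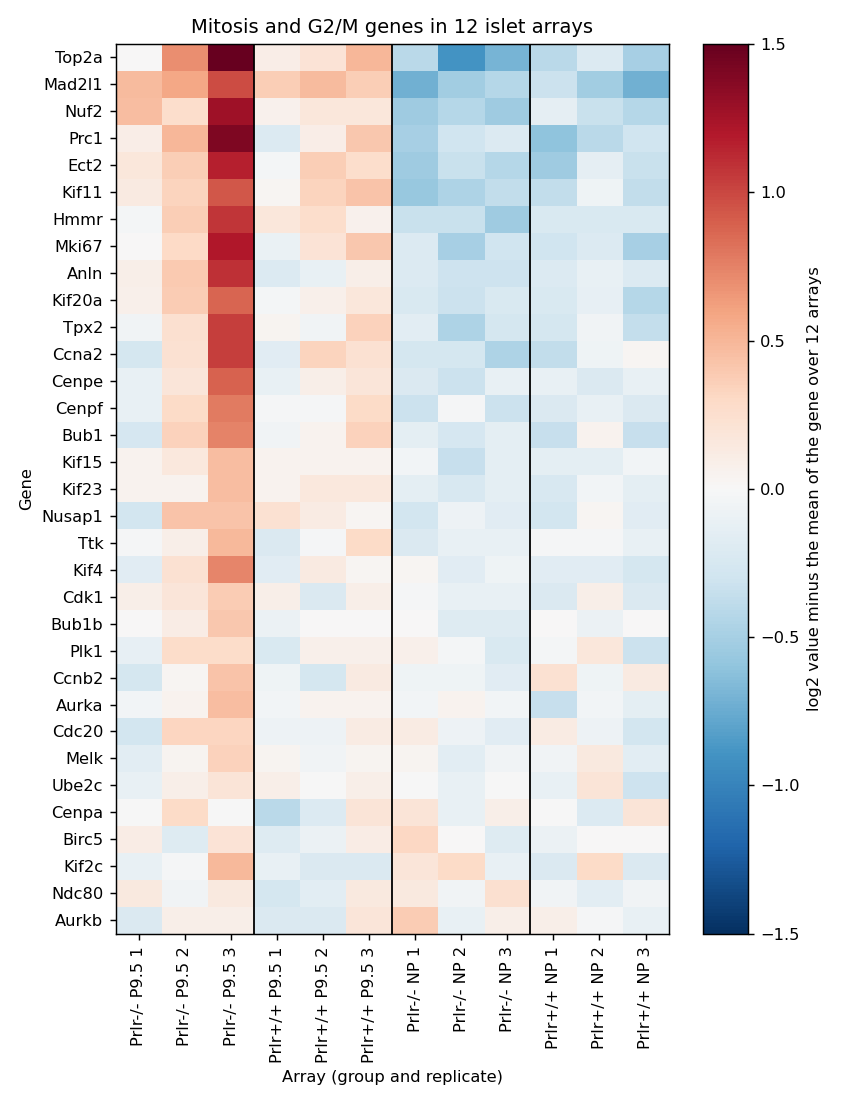
Log2 value minus the mean of the gene over 12 arrays (colour) for the 33 mitosis and G2/M genes (rows, ordered by the log2 fold change of P9.5 against NP in Prlr-/- islets) in each array (columns, by group and replicate). Prlr-/- P9.5 replicate 3 was the highest of all 12 arrays for 25 of the 33 genes, and the lowest rows, from Cenpa to Aurkb, differ little between groups.

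The 2 classical proliferation genes both rose in Prlr-/- islets. Top2a, the topoisomerase that untangles sister chromatids, was at 5.7, 6.4 and 7.3 in Prlr-/- P9.5 islets, against 5.3, 4.8 and 5.0 in Prlr-/- NP islets. The groups did not overlap, and the P9.5 arrays were more spread than the NP arrays (6.47 ± 0.80 against 5.03 ± 0.25, SD, n = 3 each). The log2 fold change was 1.43 (SE 0.307, adjusted p = 0.00478 in limma), the largest of the 33 genes. In Prlr+/+ islets Top2a was at 5.8, 5.9 and 6.2 at P9.5, against 5.3, 5.5 and 5.2 in NP. Again no array overlapped, yet the difference of 0.63 did not pass (adjusted p = 0.161 in limma).

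Mki67, which encodes the Ki-67 antigen that coats mitotic chromosomes, was at 5.5, 5.8 and 6.7 in Prlr-/- P9.5 islets, against 5.3, 5.0 and 5.2 in Prlr-/- NP islets. It rose by a log2 fold change of 0.83 (SE 0.250, adjusted p = 0.0247 in limma). In Prlr+/+ islets its values were 5.4, 5.7 and 5.9 at P9.5, against 5.2, 5.3 and 5.0 in NP. Here too the arrays were separate, and the difference of 0.50 did not pass (adjusted p = 0.174 in limma).

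Of the 3 measured genes for cyclins and their kinase, 0 were called in either genotype in limma, while 2 in Prlr-/- and 0 in Prlr+/+ islets had an unadjusted p under 0.05. Cdk1, the kinase that starts mitosis, was at 5.8, 5.9 and 6.1 in Prlr-/- P9.5 islets, against 5.7, 5.6 and 5.6 in Prlr-/- NP islets, a log2 fold change of 0.30 (SE 0.123, adjusted p = 0.0798 in limma). With the receptor present it was at 5.8, 5.5 and 5.8 in Prlr+/+ P9.5 islets, against 5.5, 5.8 and 5.5 in Prlr+/+ NP islets, and these groups overlapped. Ccna2, the cyclin of S phase and early mitosis, came near to a call in Prlr-/- islets with a log2 fold change of 0.67 (adjusted p = 0.0701 in limma). One of its P9.5 arrays, at 5.3, equalled the highest NP arrays, while the others were at 5.8 and 6.6. Ccnb2, a B-type cyclin, had log2 fold changes of 0.17 in Prlr-/- and -0.17 in Prlr+/+ islets, neither of which passed.

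The 5 mitotic kinases and subunits of the chromosomal passenger complex were near their NP levels, with 0 called and 0 at an unadjusted p under 0.05 in limma in either genotype. Their log2 fold changes in Prlr-/- islets ran from -0.13 for Aurkb to 0.20 for Plk1, the Aurora kinase of the passenger complex and the Polo-like kinase. Birc5, which encodes survivin, the subunit that brings Aurora B to centromeres, was at 5.1, 4.8 and 5.2 in Prlr-/- P9.5 islets, against 5.3, 5.0 and 4.8 in Prlr-/- NP islets. Prlr+/+ islets had 4.8, 4.9 and 5.1 at P9.5, against 4.9, 5.0 and 5.0 in NP. The groups overlapped in both genotypes, and the log2 fold change in Prlr-/- islets was 0, with a 95% confidence interval from -0.313 to 0.313. The 2 genes of the anaphase-promoting complex, its activator Cdc20 and its ubiquitin-conjugating enzyme Ube2c, had log2 fold changes of 0.17 and 0.10 in Prlr-/- islets and 0.07 and 0.13 in Prlr+/+ islets, and 0 were called or had an unadjusted p under 0.05 in limma.

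Among the 4 genes of the spindle checkpoint, Mad2l1, whose product holds back the anaphase-promoting complex, was the only one of the 33 genes called in both genotypes. It was at 6.9, 7.0 and 7.4 in Prlr-/- P9.5 islets, against 5.7, 5.9 and 6.0 in Prlr-/- NP islets, a log2 fold change of 1.23 (SE 0.144, adjusted p = 0.00018 in limma). In Prlr+/+ islets it was at 6.8, 6.9 and 6.8 at P9.5, against 6.1, 5.9 and 5.7 in NP, a log2 fold change of 0.93 (SE 0.144, adjusted p = 0.00139 in limma). Every P9.5 array lay above every NP array, and the arrays within each group were close together. The kinases Bub1 and Ttk and the checkpoint protein Bub1b had log2 fold changes of 0.47, 0.33 and 0.30 in Prlr-/- islets and were not called.

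Of the 5 genes of the centromere and kinetochore, Nuf2, a subunit of the Ndc80 complex that grips microtubules, rose in Prlr-/- islets. It was at 5.7, 5.5 and 6.5 in Prlr-/- P9.5 islets, against 4.7, 4.8 and 4.7 in Prlr-/- NP islets, with a log2 fold change of 1.17 (SE 0.202, adjusted p = 0.00154 in limma). In Prlr+/+ islets it was at 5.3, 5.4 and 5.4 at P9.5, against 5.1, 4.9 and 4.8 in NP. These arrays did not overlap either, and the log2 fold change was 0.43 (adjusted p = 0.147 in limma). Ndc80, which encodes the partner of Nuf2 in that complex, had log2 fold changes of -0.03 in Prlr-/- and 0.00 in Prlr+/+ islets, and its 95% confidence interval in Prlr-/- islets ran from -0.299 to 0.232. Cenpf, a large kinetochore protein, reached an adjusted p of 0.0482 in limma in Prlr-/- islets at a log2 fold change of 0.53, below the fold minimum. The kinetochore motor Cenpe was at 0.53 (adjusted p = 0.058) and the centromeric histone Cenpa at 0.03.

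Kinesin motors slide and depolymerise spindle microtubules, and 2 of the 6 measured rose in Prlr-/- islets. Kif11, the motor that pushes the spindle poles apart, was at 4.8, 5.0 and 5.6 in Prlr-/- P9.5 islets, against 4.1, 4.2 and 4.3 in Prlr-/- NP islets, a log2 fold change of 0.93 (SE 0.186, adjusted p = 0.00331 in limma). In Prlr+/+ islets it was at 4.7, 5.0 and 5.1 at P9.5, against 4.3, 4.6 and 4.3 in NP, with a log2 fold change of 0.53 that did not pass (adjusted p = 0.0608 in limma). Its NP values lie in the range of the Y-linked genes. Kif20a, a motor of the central spindle, was at 5.5, 5.8 and 6.3 in Prlr-/- P9.5 islets, against 5.2, 5.1 and 5.2 in Prlr-/- NP islets, a log2 fold change of 0.70 (SE 0.168, adjusted p = 0.0086 in limma). Prlr+/+ islets had 5.4, 5.5 and 5.6 at P9.5, against 5.2, 5.3 and 5.0 in NP. Kif15 and Kif23 passed the adjusted p in Prlr-/- islets (0.0203 and 0.0295 in limma) at log2 fold changes of 0.40 and 0.37, under the fold minimum. Kif4 was at 0.33 and Kif2c, which depolymerises microtubules at kinetochores, at 0.00.

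Of the 6 genes of spindle assembly and cytokinesis, 5 rose in Prlr-/- islets, with a median log2 fold change of 0.83 for the 6. Prc1, which bundles the central spindle, was at 5.3, 5.7 and 6.6 in Prlr-/- P9.5 islets, against 4.7, 4.9 and 5.0 in Prlr-/- NP islets, a log2 fold change of 1.00 (SE 0.268, adjusted p = 0.0148 in limma). Ect2, an exchange factor needed to form the cleavage furrow, was at 5.7, 5.9 and 6.7 in Prlr-/- P9.5 islets, against 5.0, 5.2 and 5.1 in Prlr-/- NP islets, also a log2 fold change of 1.00 (SE 0.219, adjusted p = 0.00544 in limma). Both were separate between stages in Prlr-/- islets, and in both the third P9.5 array was the highest. In Prlr+/+ islets Prc1 was at 5.0, 5.3 and 5.6 at P9.5, against 4.6, 4.8 and 4.9 in NP, and Ect2 at 5.5, 5.9 and 5.8, against 5.0, 5.4 and 5.2. Each had a log2 fold change of 0.53 and was not called (adjusted p = 0.177 and 0.104 in limma).

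Hmmr, a microtubule-binding protein of the spindle, was at 4.2, 4.6 and 5.3 in Prlr-/- P9.5 islets, against 3.9, 3.9 and 3.7 in Prlr-/- NP islets (log2 fold change 0.87, adjusted p = 0.00879 in limma). Prlr+/+ islets had 4.4, 4.5 and 4.3 at P9.5, against 4.0 in each NP array. Its NP levels are among the lowest of the set. Anln, the scaffold anillin of the contractile ring, was at 4.8, 5.1 and 5.8 in Prlr-/- P9.5 islets, against 4.5, 4.4 and 4.4 in Prlr-/- NP islets (log2 fold change 0.80, adjusted p = 0.0099 in limma). In Prlr+/+ islets it was at 4.5, 4.6 and 4.8 at P9.5, against 4.5, 4.6 and 4.5 in NP, and these overlapped. Tpx2, which activates Aurora A on the spindle, passed narrowly in Prlr-/- islets, with 5.3, 5.6 and 6.4 at P9.5, against 5.2, 4.9 and 5.1 in NP (log2 fold change 0.70, adjusted p = 0.0356 in limma). Nusap1, a spindle microtubule protein, had a log2 fold change of 0.37 and was not called.

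In islets of Prlr+/+ mice, only Mad2l1 of the 33 genes was called (3.03%), higher at P9.5 than in NP, while 5.73% of all probe sets were called higher and 4.21% lower. The share of mitosis genes called was thus not above that of all probe sets. The median log2 fold change of the 33 was 0.2, beside -0.067 over all probe sets, and 26 genes were above 0, 2 at 0 and 5 below. At an unadjusted p under 0.05, Mad2l1, Kif11, Kif23 and Ect2 were higher (12.1%), against 17% of all probe sets, and 0 were lower, against 18.9%. For 12 of the 33 (36.4%) all 3 P9.5 arrays lay above all 3 NP arrays, against 15% of all probe sets. The adjusted p missed the threshold for 11 of these 12, which does not show that they were the same at both stages. The fit shares an estimate of the spread per gene over all groups, which also sets the standard errors of the Prlr+/+ comparison. The median SD of the 33 genes was 0.35 in Prlr-/- P9.5 and 0.15 in Prlr+/+ P9.5 islets. With only the 2 Prlr+/+ groups fitted, Top2a was called beside Mad2l1.

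**Figure D2:**
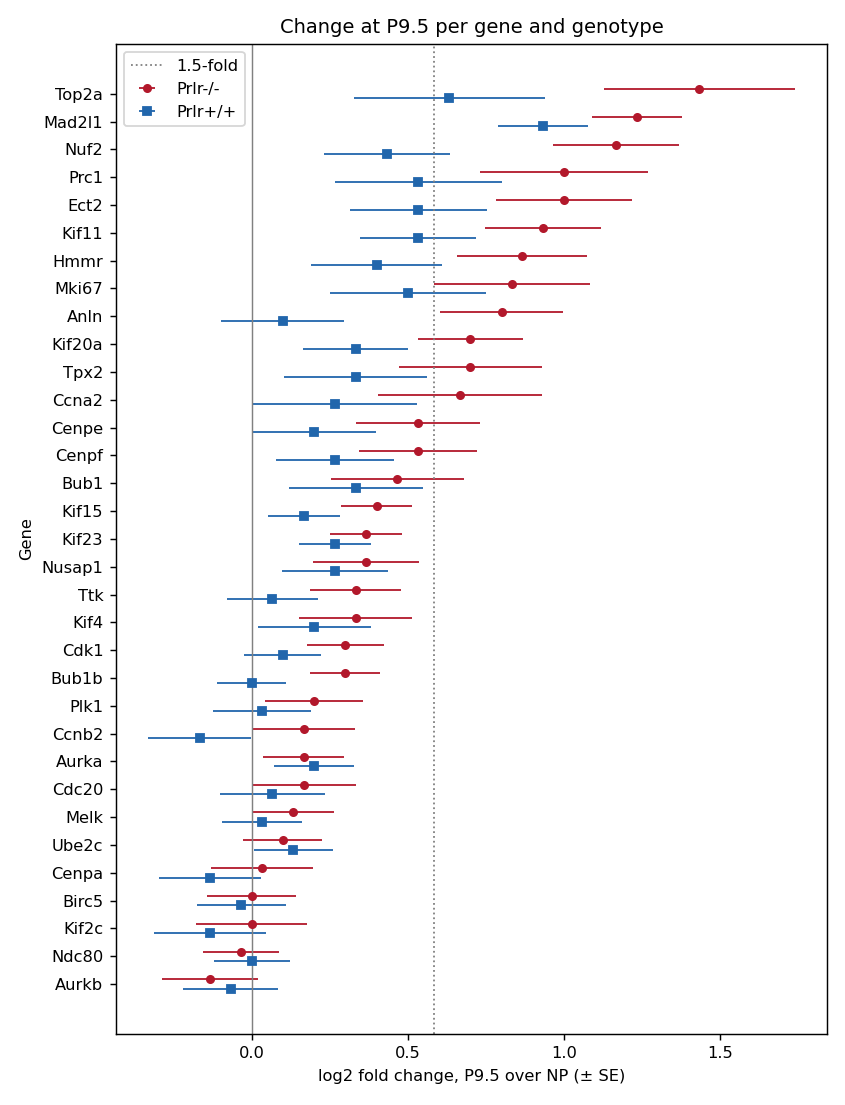
Log2 fold change of P9.5 over NP (horizontal axis) with its standard error for each of the 33 genes (vertical axis) in Prlr-/- islets (circles) and Prlr+/+ islets (squares), with a dotted line at 1.5-fold. Top2a is highest in Prlr-/- islets at 1.43, and Mad2l1 is highest in Prlr+/+ islets at 0.93.

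Whether the genotypes differ was tested directly. At P9.5, 0 of the 33 genes were called between Prlr-/- and Prlr+/+ islets, where 0.0253% of all probe sets were called higher and 0.206% lower. At an unadjusted p under 0.05, 2 were higher in limma (6.06%), against 2.79% of all probe sets. They were Anln, with a log2 fold change of 0.60 (adjusted p = 0.63 in limma), and Nuf2, with 0.53 (adjusted p = 0.779 in limma). The 3 Nuf2 values of Prlr-/- P9.5 islets lay above the 3 of Prlr+/+ P9.5 islets, while those of Anln met at 4.8. The median difference of the 33 genes was 0.2 on the log2 scale, and 32 were above 0 and 1 at 0, in a comparison where the median of all probe sets was 0. For Mki67 the difference was 0.33 with a 95% confidence interval from -0.214 to 0.881, and for Top2a 0.50 with an interval from -0.171 to 1.17.

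In NP islets 0 of the 33 genes were called between Prlr-/- and Prlr+/+ mice, and 0 passed in limma even without adjustment of p. Of all probe sets, 0.0929% were called higher and 0.00845% lower, and 7.14% were higher and 5.19% lower at an unadjusted p under 0.05. The median difference was -0.033, with 12 genes above 0, 3 at 0 and 18 below. Mki67 averaged 5.17 in both genotypes.

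The interaction of pregnancy and genotype, the log2 fold change of pregnancy in Prlr-/- minus that in Prlr+/+ islets, was called for 0 of the 33 genes, beside 0% of all probe sets called higher and 0.0788% lower. At an unadjusted p under 0.05 it was higher for Nuf2 and Anln (6.06%), against 4.26% of all probe sets. It was 0.73 for Nuf2 (adjusted p = 0.433 in limma) and 0.70 for Anln (adjusted p = 0.443 in limma). Top2a had the largest interaction, 0.80, with a standard error of 0.434 (adjusted p = 0.579 in limma). The median over the 33 genes was 0.267, against 0 over all probe sets. Calls in Prlr-/- islets and their lack in Prlr+/+ islets are therefore not shown to differ between the genotypes.

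**Figure D3:**
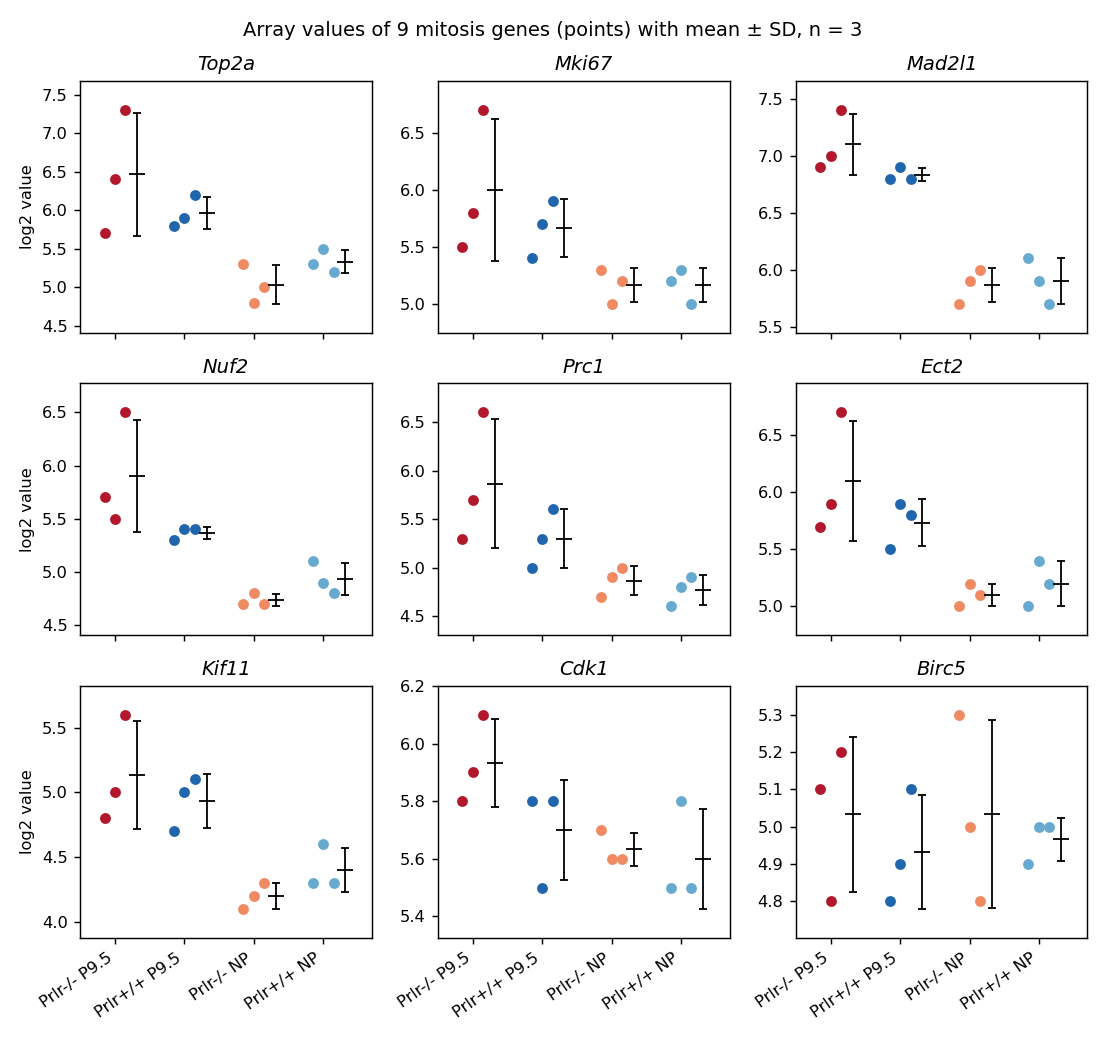
Log2 values (vertical axes, each with its own range) of 9 genes in the 3 arrays of each group (points), with the mean and SD beside them (black, n = 3). Top2a reaches 7.3 in the third Prlr-/- P9.5 array, Mad2l1 is separate between stages in both genotypes, and Birc5 overlaps in all groups.

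One array carried much of the spread. Prlr-/- P9.5 replicate 3 was the highest of its group for 27 of the 33 genes (81.8%), against 29.3% of all probe sets, and replicate 1 was the lowest for 28. Replicate 3 was also the highest of all 12 arrays for 25 genes (75.8%), against 10.1% of all probe sets. The median SD of the mitosis genes was 0.35 in Prlr-/- P9.5 islets, beside 0.15 in Prlr+/+ P9.5, 0.12 in Prlr-/- NP and 0.15 in Prlr+/+ NP islets, and the median SD of all probe sets was 0.15 in each group. Without this array, 6 of the 33 genes were called in Prlr-/- islets instead of 11, and these were Top2a, Mad2l1, Nuf2, Kif11, Prc1 and Ect2. The log2 fold change of Top2a was then 1.02 and that of Mad2l1 1.08. Mki67 was at 0.48 (adjusted p = 0.0603 in limma) and Tpx2 at 0.38 (adjusted p = 0.104 in limma), and Hmmr, Anln and Kif20a stayed under the threshold of p but fell below the fold minimum. The median difference between genotypes at P9.5 was then 0.017, and the median interaction 0.05. In Prlr+/+ islets Top2a joined Mad2l1 when this array was left out, which changes the shared estimate of the spread. Among the NP arrays of Prlr-/- mice, the call of Mki67 was lost without replicate 2 (log2 fold change 0.75, adjusted p = 0.0751 in limma) or replicate 3 (0.85, adjusted p = 0.0526). That of Prc1 was lost without replicate 1 (0.92, adjusted p = 0.0553 in limma), and that of Tpx2 without any of the 3 (0.62 to 0.77, adjusted p = 0.0598 to 0.103 in limma). Leaving out 1 array ended no call of Top2a, Mad2l1, Nuf2, Ect2 or Kif11.

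RNA of acinar cells, the enzyme-secreting cells around the islets, also differed between arrays. Of 16 acinar markers, 11 were lower and 1 higher at P9.5 than in NP in Prlr-/- islets, with a median log2 fold change of -1.40, and in Prlr+/+ islets 0 were lower (0 also at an unadjusted p under 0.05 in limma) and 1 higher, with a median of -0.53. The log2 of their summed level ran from 13.51 to 15.18 in Prlr-/- P9.5 islets, from 13.99 to 15.21 in Prlr+/+ P9.5 islets, from 15.17 to 16.04 in Prlr-/- NP islets and from 14.83 to 15.32 in Prlr+/+ NP islets. The lowest, 13.51, was Prlr-/- P9.5 replicate 3, the array with the highest mitosis levels. Within Prlr-/- P9.5 islets the mean of the 33 mitosis genes was lowest, 5.27, in replicate 1, where the acinar markers were highest. Within Prlr+/+ P9.5 islets, in contrast, replicate 3 had both the highest mean of the mitosis genes, 5.47, and the highest mean of the acinar markers, 10.35. Both means were also highest in the same array in NP islets. These arrays were Prlr-/- NP replicate 1 (5.15 and 11.14) and Prlr+/+ NP replicate 2 (5.20 and 10.43). The part of acinar RNA in the result was not tested.

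In Prlr-/- islets each of the other marker lists had fewer calls than the acinar list. Of 11 endothelial markers, 2 were higher in Prlr-/- islets and 2 lower in Prlr+/+ islets at P9.5 against NP. The log2 of their summed level ran from 11.40 to 11.53 in Prlr-/- P9.5, from 11.21 to 11.55 in Prlr+/+ P9.5, from 11.22 to 11.28 in Prlr-/- NP and from 11.46 to 11.60 in Prlr+/+ NP islets. At an unadjusted p under 0.05 in limma, 4 endothelial markers were higher and 1 lower in Prlr-/- islets, and 4 lower in Prlr+/+ islets. Between genotypes in NP islets 5 were lower at that p, against 5.19% of all probe sets. The interaction was higher for 6, against 4.26% of all probe sets, with a median of 0.43 and 0 called. In the 9 stromal, 9 myeloid and 8 lymphocyte markers, 0 were called in either genotype (limma; at an unadjusted p under 0.05, 2 stromal and 1 lymphocyte marker were higher and 5 lymphocyte markers lower in Prlr-/- islets, and 2 stromal markers lower and 1 lymphocyte marker higher in Prlr+/+ islets). Of all probe sets, 20.2% were higher and 24.8% lower at that p in Prlr-/- islets, and 17% higher and 18.9% lower in Prlr+/+ islets. Of 8 ductal markers, 1 was higher (Tspan8, log2 fold change 1.00) and 1 lower (Muc1, -0.90) in Prlr-/- islets, and 1 lower (Krt7, -0.80) in Prlr+/+ islets. The 9 beta cell markers, the defining genes of the tissue, had a mean level of 10.79 in Prlr-/- P9.5, 10.82 in Prlr+/+ P9.5, 10.76 in Prlr-/- NP and 10.82 in Prlr+/+ NP islets. Of these, Ucn3 was higher at P9.5 in both genotypes (0.60 in each), and Nkx6-1 (-0.73) and Mafa (-0.67) were lower in Prlr+/+ islets. Of 6 markers of other islet endocrine cells, 0 were called in limma in either genotype, with 1 higher in Prlr-/- and 1 lower in Prlr+/+ islets at an unadjusted p under 0.05. Which cells of the islet carried the mitosis RNA was not measured.

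Of 76 other mitosis genes (condensins and further kinetochore, spindle and cytokinesis genes), 16 rose at P9.5 in Prlr-/- islets (21.1%), against 7.44% of all probe sets called higher. In limma 0 of the 76 fell, and 2 were lower at an unadjusted p under 0.05, against 24.8% of all probe sets. The largest rises were those of Ncapg2, a condensin subunit, and Pbk, a mitotic kinase, each with a log2 fold change of 1.07, and of Arhgap11a, with 1.03. In Prlr+/+ islets 6 rose (7.9%), a share close to the 5.73% of all probe sets called higher there, led by the kinetochore gene Spc25 (0.90), Arhgap11a (0.90) and Ncapg2 (0.73), and 1 fell, the phosphatase Cdc25b (-0.60). Their median log2 fold change was 0.23 in Prlr-/- and 0.10 in Prlr+/+ islets. Between genotypes 0 were called at either stage in limma, with 7 higher and 1 lower at P9.5 and 4 higher and 4 lower in NP islets at an unadjusted p under 0.05. Of all probe sets, 2.79% were higher and 2.63% lower at P9.5 at that p, and 7.14% higher and 5.19% lower in NP islets.

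Of 39 measured genes of DNA replication, the step before G2, 12 rose at P9.5 in Prlr-/- islets (30.8%) and 7 in Prlr+/+ islets (17.9%). Of all probe sets, 7.44% and 5.73% were called higher in these comparisons. In limma 0 of the 39 fell in either genotype, with 2 lower in Prlr-/- and 3 in Prlr+/+ islets at an unadjusted p under 0.05. Of all probe sets, 24.8% and 18.9% were lower at that p in these comparisons. Pcna, the sliding clamp of the replication fork, had a log2 fold change of 1.03 in each (adjusted p = 0.000388 in Prlr-/- and 0.000775 in Prlr+/+ islets in limma). Ccne2, the cyclin that starts S phase, was at 1.20 in Prlr-/- and 0.70 in Prlr+/+ islets, and Rrm1, a subunit of ribonucleotide reductase, at 0.93 and 0.63. The mean of the 39 ran from 6.09 to 6.26 in the Prlr-/- P9.5 arrays and from 6.08 to 6.14 in the Prlr+/+ P9.5 arrays, against 5.85 to 5.88 in Prlr-/- NP and 5.90 to 5.97 in Prlr+/+ NP arrays, so every P9.5 array lay above every NP array. The mean of the 33 mitosis genes ran from 5.27 to 5.97 in Prlr-/- P9.5 and from 5.24 to 5.47 in Prlr+/+ P9.5 islets, against 5.07 to 5.15 in Prlr-/- NP and 5.07 to 5.20 in Prlr+/+ NP islets. It was also separate between stages, by a narrower margin. The median of the 33 was not separate, since the highest Prlr+/+ NP array and the lowest array of each P9.5 group were all at 5.3.

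**Figure D4:**
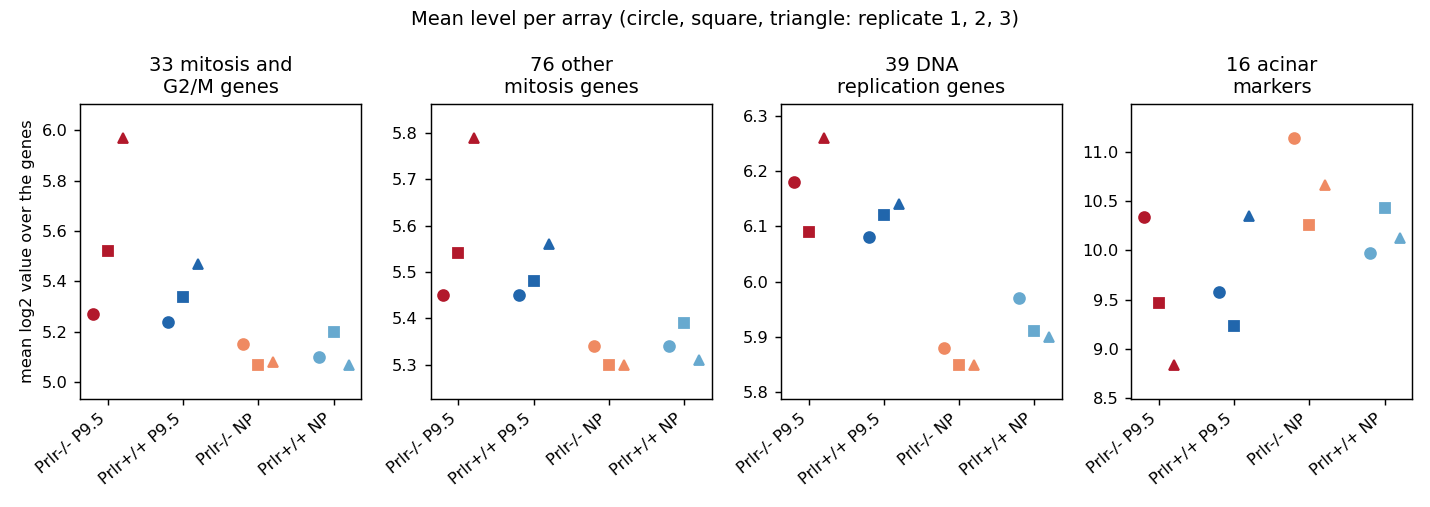
Mean log2 value over the genes of a list (vertical axes, each with its own range) in the 3 arrays of each group, for the 33 mitosis and G2/M genes, 76 other mitosis genes, 39 DNA replication genes and 16 acinar markers. Prlr-/- P9.5 replicate 3 (triangle) has the highest mean of the mitosis genes, 5.97, and the lowest of the acinar markers, 8.84.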

How the data were processed

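RNA of islets from 4 groups of mice was hybridised to Affymetrix MoGene_1.0_ST arrays. The deposited log2 values were made by the authors with robust multichip analysis in aroma.affymetrix, which corrects background, normalizes by quantiles and summarises each probe set. The deposited values are rounded to 0.1, and the build used to define them is not given in the sources used here. Of 35511 probe sets, 21789 carry 1 gene symbol, 1621 several and 12101 none.

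Group means of all 12 arrays were fitted in limma 3.58.1 (R 4.3.3) with lmFit and eBayes, without covariates, and p-values were adjusted by Benjamini and Hochberg over all probe sets. Lists were described by counts and medians, with no set test. Called genes (the 10 with the largest change in a comparison) and Mki67, Top2a, Cdk1 and Birc5 were given array by array (Ccnb1, in the same rule, was not measured), and so was the eleventh called gene, Tpx2, which was chosen after its values were seen. The genes and lists were chosen with earlier results of these data known. The calling was tested on simulated data in which a probe set had the same spread in every group. This does not cover genes whose spread differs between groups, as that of the mitosis genes did. Promoters came from RefSeq (GRCm38.p6). Alternatives were the 2 groups alone, a replicate block, leaving out each array, low probe sets left out, median centring, quantile normalization, array weights, an intensity trend, other fold minimums and other choices of probe sets. Leaving out Prlr-/- P9.5 array 3 together with Prlr+/+ P9.5 array 2 was chosen after seeing the data. Same-numbered arrays were not treated as pairs.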

Additional observations from a re-analysis of the deposited data

Results flagged for a closer look

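For Nuf2 and Anln, all 3 Prlr-/- arrays lay above the Prlr+/+ mean at P9.5 and all 3 lay below it in NP islets, so that the sign of the genotype difference changed between the stages. The differences in NP islets, -0.20 for Nuf2 and -0.10 for Anln, did not pass in limma (adjusted p = 0.742 and 0.878), and both genes had positive log2 fold changes of pregnancy in both genotypes. The interaction was a log2 difference of 0.73 for Nuf2 and 0.70 for Anln, and neither passed in limma over all probe sets (adjusted p = 0.433 and 0.443). A change of sign was not particular to them. Of the 33 genes, 32 had a genotype difference above 0 at P9.5, and 18 had one below 0 in NP islets. Top2a, for example, was at 0.50 at P9.5 and at -0.30 in NP islets.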

How the results depend on the processing

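In Prlr-/- islets at P9.5 against NP, the count of mitosis genes called was 11. It was 5 with a fold change minimum of 2, and 15 after median centring or quantile normalization. With both Prlr-/- P9.5 array 3 and Prlr+/+ P9.5 array 2 left out it was 6. It was also 6 with the dimmest 40% of probe sets left out, a setting in which dim mitosis genes are not tested. The called genes missing there were Nuf2, Kif11, Prc1, Hmmr and Anln. On average across the arrays they were dimmer than the 6 that stayed. This 6 therefore does not show that their calls failed a test. Leaving out 1 array at a time gave a count of 6 to 16. The 6 came from the omission of Prlr-/- P9.5 replicate 3 and the 16 from that of Prlr-/- P9.5 replicate 1. The calls among all probe sets, higher and lower together, moved as well. They numbered 5159 in the main fit, 6345 after median centring, 4528 after quantile normalization and 4075 to 5979 with 1 array left out. In Prlr+/+ islets the count of 1 mitosis gene was 2 with only the 2 groups compared, 2 after median centring, 2 after quantile normalization and 0 with a fold change minimum of 2, and 1 to 2 with 1 array left out. All probe sets called there numbered 3528 in the main fit, 3751 after median centring, 3263 after quantile normalization and 2763 to 3964 with 1 array left out. The call of Mad2l1 in Prlr+/+ islets was lost only with the fold change minimum of 2.

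The median interaction of 0.267 was 0.05 with both arrays left out, and 0.05 to 0.383 with 1 array left out. Between genotypes at P9.5, leaving out 1 array gave -0.017 to 0.583 for Mki67, -0.033 to 0.367 for Kif11 and -0.017 to 0.533 for Tpx2, with the lowest value of each without Prlr-/- P9.5 replicate 3. Tpx2 was at -0.1 with both arrays left out. Birc5 in Prlr+/+ islets was at 0.033 after median centring, 0.061 after quantile normalization and -0.117 to 0.033 with 1 array left out. The cause of these changes was not tested.

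With the replicate block, 12 mitosis genes were called in Prlr-/- islets, Ccna2 being added, and 1 in Prlr+/+ islets. The labels do not say whether same-numbered arrays belong together. With group means removed, 7 of 18 same-numbered pairs correlated at over 0.1 (-0.114 to 0.227). For 1 of the 12 arrays the same-numbered array was the closest in every group. These values do not settle whether arrays were paired. Median centring removed a difference in array median of -0.17 (Prlr-/- P9.5 minus Prlr-/- NP, log2), and moved the share of higher calls among all probe sets called to 76.2%, against 51.2%. In Prlr+/+ islets that share moved to 70.2%, against 57.7%. No mitosis gene was called between genotypes or in the interaction under any alternative. Values for single genes were followed for the 11 called genes with Cdk1 and Birc5, not for all 33. Of these values, 964 kept their direction and side of the threshold, 28 lost the call, 4 gained one and 7 changed sign. The 964 include values that were not called in the main fit and stayed so.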
